A study of Oryza sativa with 14 samples.

Results

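The comparison is between cr12 and cr2, which carry the htg3 label in the cultivar Zhonghua 11 (ZH11), in rice leaves that were not heated. Libraries were chosen by their genotype and treatment labels. Of 14 leaf RNA libraries, 4 are the members: 2 of htg3_cr12 without heat (cr12_control) and 2 of htg3_cr2 without heat (cr2_control). The 3 untreated ZH11 libraries (WT_control) are the reference that shows which line departs from the wild type (WT), which brings the untreated libraries to 7. All plants were grown in pots to the 4-leaf seedling stage. Heat-treated libraries of the same genotypes, taken after 0.5 h at 42 °C (3 of WT, 2 of cr12 and 2 of cr2), serve as a repeat of the line comparison in other libraries. The labels call the lines transgenic. They do not say what the lines carry, whether each line is a single clone, or whether replicates are separate plants. The p-values therefore speak only of the spread among these libraries, which may be technical.

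HTG3 is taken here as a name of HSFA2d, a heat shock factor. This comes from general knowledge, since the labels do not tie htg3 to a locus. Heat shock factors are transcription factors that bind heat shock elements in promoters, and those of class A switch on chaperone genes when cells are heated. Separate lines of a mutant are commonly set side by side, since what differs between them need not depend on the mutated gene.

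The untreated libraries held 92 M to 98.1 M estimated counts (M, mega), or 23 M to 24.5 M fragments at about 4 counts per fragment. Levels are given as CPM, a gene's counts over the library size (in M) scaled by the trimmed mean of M values (TMM). Log counts of the replicates correlated at 0.983 in each line and at 0.986 to 0.987 in WT, and those of cr12 with cr2 at 0.963 to 0.977. One library stood apart. Its 100 most abundant genes held 27.4% of the counts in cr2_control replicate 2, against 19% to 22.5% in the other 6 untreated libraries, and its TMM factor was 0.947 against 1.02 to 1.1. On the first principal component of the 7 untreated libraries (33.6% of the variance) it lay at 88.3 and cr2_control replicate 1 at 47.3, while cr12 lay at -27.9 and -29 and WT at -28.6 to -24. The second component (26.3%) placed cr12 at -45.6 and -61.4, cr2 at -14.5 and 7.03, and WT at 28.3 to 51.2. For the listed genes called between the lines, the value without cr2_control replicate 2 is given as well.

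HSFA2d RNA (LOC_Os03g06630, chromosome 3) was not called between the lines. It stood at 137 and 32 CPM in the cr12 libraries, at 86.8 and 105 CPM in the cr2 libraries, and at 82.6, 91.6 and 71.2 CPM in WT. The cr12 libraries lie on both sides of all the others, and the log2 difference of cr12 minus cr2 was -0.18 ± 0.46 (edgeR, adjusted p = 0.88). The sources used here do not give where in the gene the lines differ from WT, so this level does not test the labels. After heat HSFA2d stood at 486 and 550 CPM in cr12, at 249 and 263 CPM in cr2, and at 447, 685 and 459 CPM in WT, with a log2 difference between the lines of 1.02 (adjusted p = 0.26).

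Several heat-induced genes differed more between the replicates of a line than between the lines. HSP101, a chaperone that pulls proteins out of aggregates, stood at 1.37 and 8.73 CPM in cr12 and at 1.24 and 0.571 CPM in cr2. HSFA2a, a heat shock factor, stood at 0 and 6.69 CPM in cr12 and at 1.25 and 0.581 CPM in cr2. In both genes cr12_control replicate 2 was the highest of the 7 untreated libraries. The same library was the highest for the small heat shock protein genes LOC_Os03g16020 (16.7 CPM, against 1.04 in replicate 1) and LOC_Os01g08860 (17.9 against 3.06 CPM). The HSP90 gene LOC_Os09g30418 was at 126 CPM in replicate 1 of cr12 and 121 CPM in replicate 1 of cr2, and at 0 in replicate 2 of each. Its family member LOC_Os08g39140 went the other way, at 48.9 and 237 CPM in cr12 and at 56 and 145 CPM in cr2. In WT the 2 genes did not move in opposite directions. LOC_Os09g30418 stood there at 140, 122 and 122 CPM and LOC_Os08g39140 at 215, 43.8 and 45.6 CPM. Copies of a family may share reads, which would make their single values uncertain, and this was not tested. The HSP70 gene LOC_Os11g47760 stood at 806 and 727 CPM in cr12 and at 834 and 768 CPM in cr2. None of these genes was called between the untreated lines.

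Without heat, 1094 genes differed between the lines, 449 of them higher in cr12 and 645 higher in cr2. That is 3.8% of the 28823 genes tested (edgeR, quasi-likelihood F test, Benjamini-Hochberg adjusted p under 0.05), with 1.56% higher in cr12 and 2.24% higher in cr2. Of these, 539 differed at least 2-fold. The median log2 difference over all tested genes was 0.02. The count rests on single libraries. It was 64 without cr2_control replicate 2 and 124 without cr12_control replicate 1. It was 327 without cr12_control replicate 2 and 1746 without cr2_control replicate 1. In a fit of the 4 line libraries alone it was 22. The median absolute log2 difference of the 1094 genes went from 0.992 to 0.847 without cr2_control replicate 2. In all 1094 genes the 4 libraries did not overlap between the lines, which also held for 52.9% of all tested genes, so leaving out a library could not turn their order. With 2 libraries against 2, an exact two-sided permutation test of a single gene cannot give a p below 0.333.

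**Figure D1:**
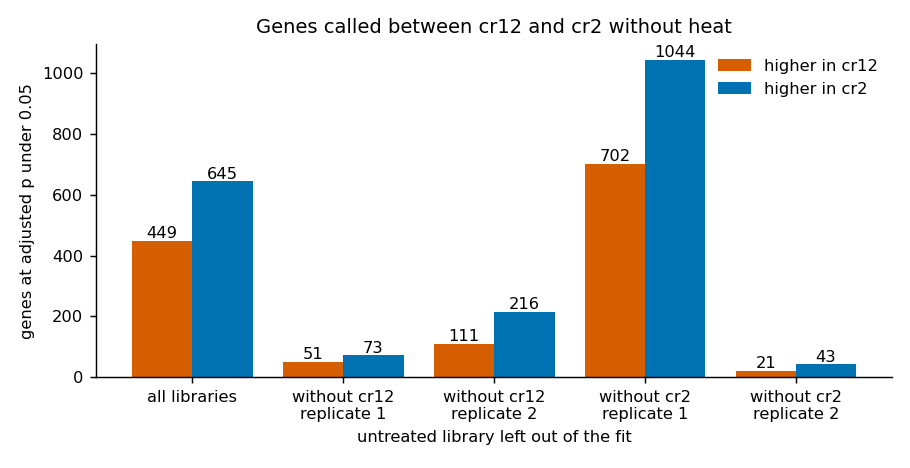
Number of genes called between cr12 and cr2 without heat (adjusted p under 0.05, edgeR), with all libraries and with each of the 4 untreated line libraries left out of the fit. Orange bars count genes higher in cr12 and blue bars genes higher in cr2; the total falls from 1094 to 64 without cr2_control replicate 2 and rises to 1746 without cr2_control replicate 1.

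Against untreated WT, cr12 differed in 433 genes (1.5% of those tested), 206 higher (0.715%) and 227 lower (0.788%), and cr2 in 1582 genes (5.49%), 993 higher (3.45%) and 589 lower (2.04%). The contrasts share their libraries with the comparison of the lines. Of the 1094 genes that differed between the lines, 392 (35.8%) were called against WT in cr2 and not in cr12, 135 (12.3%) in cr12 and not in cr2, 22 in both and 545 (49.8%) in neither. The WT mean lay between the means of the lines for 866 of the 1094 genes (79.2%). It was nearer to cr12 for 645 genes (59%) and nearer to cr2 for 449 (41%). Genes called because the lines lie apart tend to have WT between them. Neither count was set against its share over all tested genes. This balance also changed when cr2_control replicate 2 was left out. The line then has a single library, so its calls can fall for that alone. With cr2_control replicate 1 left out instead, cr2 still had more genes called against WT in it alone than cr12. The library cr2_control replicate 2 lay farther from WT than cr2_control replicate 1 for 887 of the 1094 genes (81.1%). The 1094 genes were called with these same libraries, so a library that drives calls tends to lie far out on them. The median absolute log2 distance from the WT mean over the 1094 genes was 0.705 in cr2_control replicate 2, 0.407 in cr2_control replicate 1, and 0.449 and 0.425 in the cr12 libraries. Over all tested genes this distance was 0.306, 0.243, 0.229 and 0.26 in the same order, a smaller gap. Without cr2_control replicate 2, cr2 differed from WT in 280 genes, and of the 64 genes then called between the lines 35 were called against WT in cr12 only and 21 in cr2 only. Without cr12_control replicate 1 the counts were 45 and 45, and without cr12_control replicate 2 they were 50 and 119.

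Genes of 33 lists, covering flowering, photosynthesis, defence, hormones, nutrients, heat and cell type markers, were read in this comparison. Of 381 listed loci 372 were tested, and 23 of them (6.18%) differed between the lines, 15 higher in cr12 and 8 higher in cr2. The share over all tested genes was 3.8%, with 1.56% higher in cr12 and 2.24% higher in cr2. Neither this count nor the calls given below for single lists were tested against that share. Against WT 8 of the 23 were called in cr2 only, 0 in cr12 only and 15 in neither, and the cr2 mean was the farther from WT on the log2 scale for 17. Without cr2_control replicate 2 there was 1 still called, without cr2_control replicate 1 there were 18. The first and second cr12_control replicates left out in turn gave 3 and 4. The gene called without cr2_control replicate 2 was DREB1C.

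**Figure D2:**
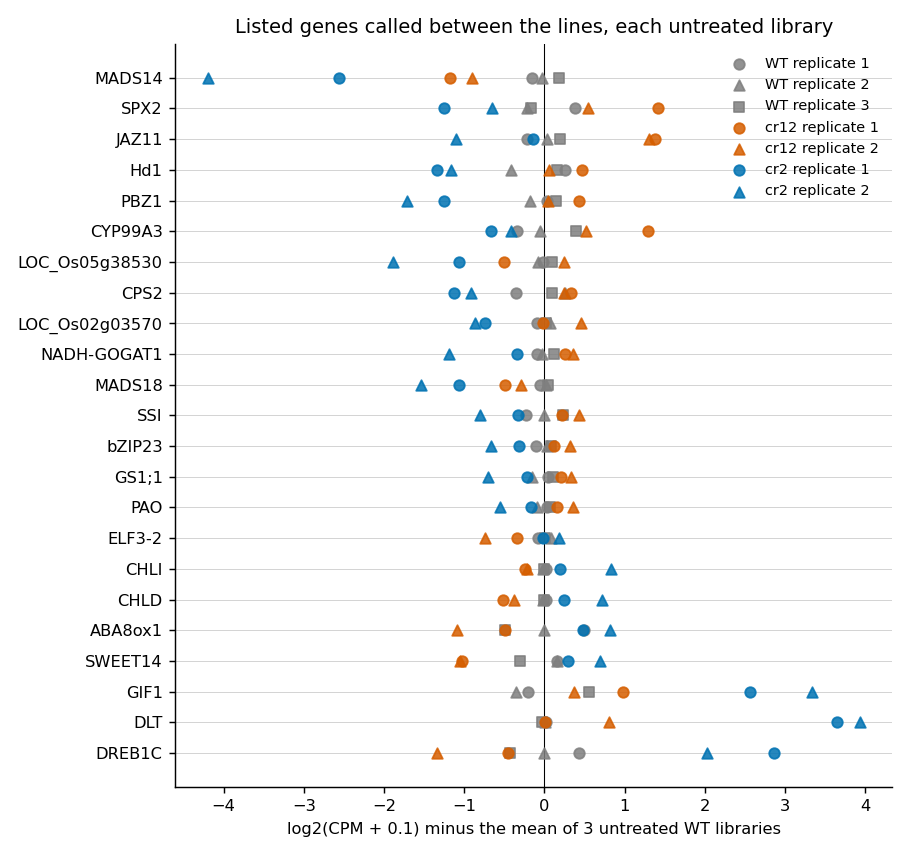
The 23 listed genes called between the lines, each as log2(CPM + 0.1) minus the mean of the 3 untreated WT libraries (x axis), with 1 point per untreated library (grey WT, orange cr12, blue cr2). Orange and blue points do not overlap in any row, and the cr2 libraries lie the farther from WT for MADS14, GIF1, DLT and DREB1C.

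Of the flowering genes 3 were lower in cr2 than in cr12. MADS-box genes of the APETALA1 group act when the shoot turns from leaves to flowers. MADS14 stood at 26, 28.4 and 32.9 CPM in WT, at 12.7 and 15.5 CPM in cr12, and at 4.81 and 1.49 CPM in cr2. The 3 genotypes do not overlap, and WT is the highest. The lines differed by 2.16 ± 0.47 on the log2 scale (adjusted p = 0.031), cr2 differed from WT by -3.2 (adjusted p = 0.0033), and cr12 was not called against WT (-1.05, adjusted p = 0.25). MADS18, of the same group, had the same order at higher CPM, with 67.4, 71.2 and 72.2 in WT, 49.9 and 57.1 in cr12, and 33.6 and 24.2 in cr2 (0.89 ± 0.17, adjusted p = 0.02). The 3 tested loci that follow MADS18 in ID order were called as well, by 1.15, 3.11 and 1.19 in the same direction. MADS15, the third of the group, was near the detection limit, at 0.171 and 0.522 CPM in cr12 and at 0.04 and 0 CPM in cr2, and was not called (3.99 ± 1.62, adjusted p = 0.19), although it had the largest log2 difference of its list.

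Hd1, a zinc finger regulator that reads day length, stood at 1.65 and 1.22 CPM in cr12, at 0.401 and 0.463 CPM in cr2, and at 1.42, 0.847 and 1.32 CPM in WT (1.73 ± 0.4, adjusted p = 0.038). It lies in a run of 4 neighbouring tested loci that were all called, 2 in each direction. In the flowering list 3 of 13 genes were higher in cr12 and 0 lower, and the median log2 difference was 0.13, against 0.02 over all tested genes. Without cr2_control replicate 2 the median was 0.41 with no gene called, and MADS14 stood at 1.51 ± 0.42 (adjusted p = 0.21), MADS18 at 0.63 (0.21) and Hd1 at 1.8 (0.24). After heat MADS14 (3.85, adjusted p = 0.0034) and MADS18 (0.81, 0.017) were called again in the same direction, and Hd1 was not (0.9, 0.23).

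Most genes of chlorophyll synthesis and of the photosystems stood higher in both cr2 libraries, and 2 of them were called. Most were also higher in replicate 2 of cr2 than in replicate 1, but PORA (904 and 852 CPM in cr2) and LHCA3 (3000 and 2830 CPM) were not. Of chlorophyll synthesis CAO1, YGL1 and GLK2 overlapped between the lines, with CAO1 at 651 and 444 CPM in cr12 and at 478 and 870 CPM in cr2. CHLD and CHLI code for subunits of magnesium chelatase, which makes the first intermediate of chlorophyll synthesis proper. CHLD stood at 57.3 and 63.2 CPM in cr12, at 97.3 and 135 CPM in cr2, and at 83, 81.1 and 81.9 CPM in WT. WT lies between the lines without overlap, and the log2 difference was -0.95 ± 0.16 (adjusted p = 0.014). CHLI stood at 120 and 122 CPM in cr12, at 163 and 251 CPM in cr2, and at 144, 140 and 142 CPM in WT (-0.78 ± 0.18, adjusted p = 0.038). All 10 genes of chlorophyll synthesis had a negative log2 difference, 2 of them called, with a median of -0.54. HEMA1, an early enzyme of the pathway, stood at 481 and 359 CPM in cr12 and at 592 and 974 CPM in cr2 (-0.9 ± 0.23, adjusted p = 0.051). None of the 10 was called without cr2_control replicate 2, 9 were negative and CAO1 was positive (0.16), with a median of -0.4. CHLI then stood at -0.47 ± 0.16 (adjusted p = 0.3) and CHLD at -0.73 ± 0.15 (0.1).

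Of the 16 genes of light harvesting and the photosystems, all 16 had a negative log2 difference and 15 did not overlap between the lines, with a median of -0.66. Of the 28823 tested genes 13439 had a negative difference and 6893 lay higher in cr2 without overlap. An unadjusted p under 0.05 was found in 6109 of the 28823, and DESeq2 called more genes than edgeR over all of them. Of the 16 genes 12 had an unadjusted p under 0.05, 0 were called by edgeR, 0 by voom and 9 by DESeq2. Their summed level was 46600 and 38000 CPM in cr12, 53800 and 85000 CPM in cr2, and 50400 to 56500 CPM in WT. Replicate 1 of cr2 lies within the WT range and replicate 2 far above it. LHCB2, an antenna protein of photosystem II, stood at 4720 and 3990 CPM in cr12 and at 5950 and 9590 CPM in cr2 (-0.84 ± 0.23, adjusted p = 0.064). LHCB1.1 had the largest difference of the list (-1.61 ± 1.68, adjusted p = 0.64) and varied more than 10-fold within WT, where it stood at 219, 311 and 12.1 CPM. The median was -0.36 without cr2_control replicate 2. In bulk leaf RNA, fewer cells of a type and less RNA per cell cannot be told apart.

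Among 9 carbon fixation genes 0 were called by edgeR, 0 by voom and 2 by DESeq2, and the median was -0.41. An unadjusted p under 0.05 was found in 5 of the 9, against 6109 of all 28823 tested genes. RBCS2, a small subunit of Rubisco, stood at 7320 and 4570 CPM in cr12 and at 9550 and 18300 CPM in cr2 (-1.23 ± 0.36, adjusted p = 0.077). RCA, the activase of Rubisco, stood at 17400 and 17100 CPM in cr12 and at 16000 and 18400 CPM in cr2, which overlap. After heat the counts were larger: 8 of 16 genes of light harvesting, 7 of 10 of chlorophyll synthesis and 7 of 9 of carbon fixation were higher in cr2, with medians of -0.88, -0.91 and -1.05. Calls higher in cr2 also rose among all tested genes, from 2.24% without heat to 3.45% in the heat-treated libraries. There the summed level of the light harvesting list was 31000 and 24200 CPM in cr12 and 47000 and 49600 CPM in cr2. Both cr2 libraries lay above both cr12 libraries there.

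A gene of chlorophyll breakdown in leaf senescence was higher in cr12. PAO, which opens the ring of chlorophyll during its breakdown, stood at 95.3 and 110 CPM in cr12, at 76.2 and 58 CPM in cr2, and at 87, 79.8 and 89.2 CPM in WT (0.61 ± 0.14, adjusted p = 0.038). It was the single call among 5 genes, whose median was 0.61. The senescence regulator NAP stood at 33.1 and 40.6 CPM in cr12 and at 20.6 and 9.97 CPM in cr2 (1.27 ± 0.34, adjusted p = 0.06), and the chlorophyll degradation gene SGR had a log2 difference of 0.95 (adjusted p = 0.06). None of these 3 was called without cr2_control replicate 2, with PAO at 0.39 (adjusted p = 0.43), NAP at 0.8 (0.45) and SGR at 0.51 (0.46). After heat NAP (2.31, adjusted p = 0.005) and SGR (1.51, 0.008) were called higher in cr12, and PAO was not called (0.41, 0.12). NOL, a subunit of chlorophyll b reductase, was called in the other direction after heat, at 9.09 and 7.97 CPM in cr12 and at 13.8 and 13.8 CPM in cr2 (-0.69, adjusted p = 0.023).

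All 10 diterpenoid phytoalexin genes stood higher in cr12, and 2 of them were called. These antimicrobial compounds are made in rice from geranylgeranyl diphosphate by cyclases and cytochromes P450. CPS2, the cyclase that opens the phytocassane branch, stood at 50.4 and 47.4 CPM in cr12, at 18.4 and 21.2 CPM in cr2, and at 31.3, 47.9 and 42.9 CPM in WT. Both cr2 libraries lie below WT, and cr12 overlaps WT. For CPS2 the log2 difference was 1.3 ± 0.32 (adjusted p = 0.044). CYP99A3, a cytochrome P450 of momilactone synthesis, stood at 9.77 and 5.66 CPM in cr12, at 2.43 and 2.92 CPM in cr2, and at 3.07, 3.77 and 5.2 CPM in WT (1.53 ± 0.32, adjusted p = 0.027). KSL7 had the largest difference of the list, with 17.2 and 5.52 CPM in cr12 and 1.36 and 0.301 CPM in cr2 (3.76 ± 1.05, adjusted p = 0.068).

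Of the 10 phytoalexin genes 2 were called, and all 10 were higher in both cr12 libraries than in either cr2 library, an order that 8362 of the 28823 tested genes also had. The median log2 difference was 2.19, against 0.02 over all genes, and 1.88 without cr2_control replicate 2. Their summed level was 151 and 81.9 CPM in cr12, 35.2 and 34.8 CPM in cr2, and 59.7 to 103 CPM in WT. CPS2 alone made up 18.4 and 21.2 CPM of the sums in cr2, and 8 of the 10 genes were lower in cr2_control replicate 2 than in replicate 1. In cr12 all 10 were lower in replicate 2 than in replicate 1. Neither CPS2 (1.37, adjusted p = 0.25) nor CYP99A3 (1.63, 0.18) was called without cr2_control replicate 2. After heat CPS2 was called again (1.24, adjusted p = 0.046), the only one of the 10, with a list median of 1.21. In the list of other defence genes, PBZ1, a pathogenesis-related protein of class 10, stood at 199 and 152 CPM in cr12, at 62.1 and 45.1 CPM in cr2, and at 151, 130 and 164 CPM in WT (1.71 ± 0.26, adjusted p = 0.0098). It was the only call of 15 genes without heat. WRKY62, a transcription factor of defence, had the largest difference of that list (2.06 ± 0.73, adjusted p = 0.13). After heat 5 of the 15 were higher in cr12, all of them WRKY genes, against 2.18% of all tested genes. PBZ1 was not called then (0.93, 0.061). In untreated leaves without cr2_control replicate 2 it was not called either (1.46, adjusted p = 0.13).

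**Figure D3:**
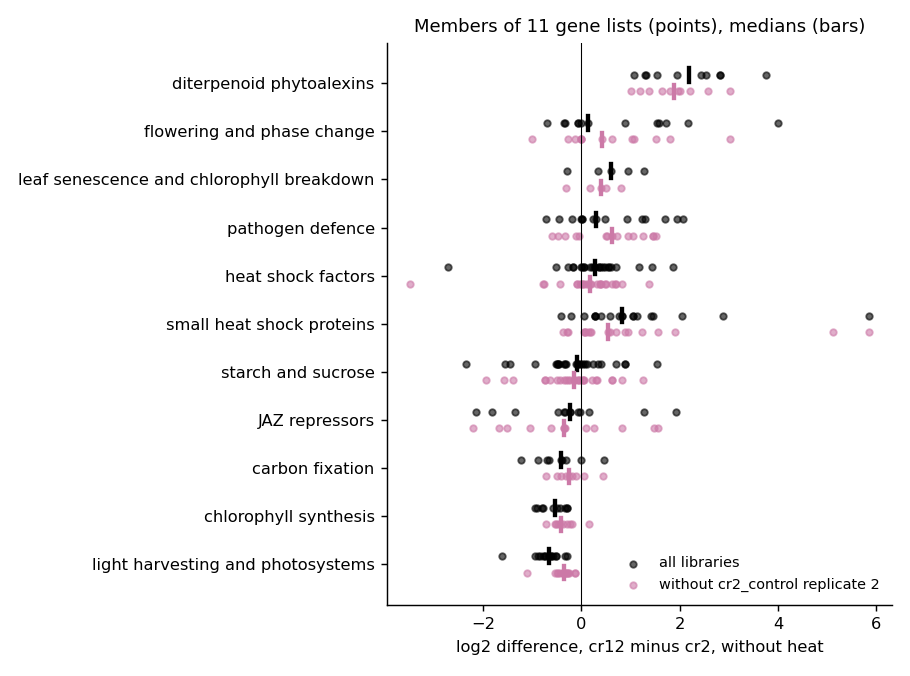
Log2 difference of cr12 minus cr2 without heat (x axis) for the tested members of 11 gene lists, as points, with the list medians as bars. Black shows the fit to all libraries and pink the fit without cr2_control replicate 2: the median of the diterpenoid phytoalexins goes from 2.19 to 1.88 and that of light harvesting from -0.66 to -0.36.

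Among genes of sugar, nitrogen and phosphate use, GIF1, a cell wall invertase that splits sucrose outside the cell, had the largest difference of the starch and sucrose list. It stood at 7.69 and 13.2 CPM in cr2, at 2.5 and 1.6 CPM in cr12, and at 1.05, 0.928 and 1.84 CPM in WT. The cr2 libraries lie above all others, and the log2 difference was -2.35 ± 0.53 (adjusted p = 0.034), with cr2 above WT by 3.03 (adjusted p = 0.0044). SWEET14, a sugar exporter, stood at 11.9 and 11.6 CPM in cr12, at 29.8 and 39.2 CPM in cr2, and at 26.9, 26.9 and 19.6 CPM in WT (-1.56 ± 0.32, adjusted p = 0.025). Here both cr12 libraries lie below WT, although cr12 was not called against it (-1.06, adjusted p = 0.1). SSI, a soluble starch synthase, was higher in cr12, at 45.1 and 52.7 CPM against 30.9 and 22.3 CPM in cr2 (0.88 ± 0.18, adjusted p = 0.026). WT stood at 33.1, 38.8 and 45.7 CPM for SSI. Of 27 tested starch and sucrose genes 1 was higher and 2 were lower in cr12, with a median of -0.08.

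NADH-GOGAT1 and GS1;1, the synthases that build ammonium into glutamate and glutamine, were both higher in cr12. NADH-GOGAT1 stood at 301 and 322 CPM in cr12, at 198 and 110 CPM in cr2, and at 236, 245 and 273 CPM in WT (1.01 ± 0.23, adjusted p = 0.033). GS1;1 stood at 615 and 671 CPM in cr12, at 459 and 328 CPM in cr2, and at 550, 480 and 577 CPM in WT (0.71 ± 0.15, adjusted p = 0.029). They were the 2 calls among 15 nitrogen genes. SPX2, a phosphate-sensing protein, stood at 17.7 and 9.67 CPM in cr12 and at 2.71 and 4.15 CPM in cr2, with WT between the lines at 5.66 to 8.61 CPM (2 ± 0.46, adjusted p = 0.038), and was the only call of 11 phosphate genes. Without cr2_control replicate 2 none of these 6 genes was called. NADH-GOGAT1 then stood at 0.61 (adjusted p = 0.24) and GS1;1 at 0.45 (0.29), both smaller by more than 1.5 times. GIF1 stood at -1.95 (0.25), SWEET14 at -1.39 (0.19), SSI at 0.62 (0.27) and SPX2 at 2.3 (0.19). After heat none of the 6 was called, and their log2 differences ran from -0.34 for GIF1 to 0.59 for SSI.

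Among hormone and stress regulators, DREB1C and DLT were detected mainly in cr2. Their levels in cr12 and WT were near the detection limit, so the sizes of their untreated differences are uncertain. DREB1C, a transcription factor of the cold response, stood at 2.12 and 1.14 CPM in cr2, at 0.121 and 0.02 CPM in cr12, and at 0.308, 0.202 and 0.126 CPM in WT. Both cr2 libraries lie above all 5 others, and the log2 difference was -4.52 ± 0.59 (adjusted p = 0.0048), or -4.94 ± 0.59 without cr2_control replicate 2 (adjusted p = 0.013). DLT, a GRAS protein of brassinosteroid signalling, lies near DREB1C on chromosome 6. It stood at 3.17 and 3.88 CPM in cr2, at 0.161 and 0.354 CPM in cr12, and at 0.155 to 0.164 CPM in WT (-3.76 ± 0.67, adjusted p = 0.016). DLT was not called without cr2_control replicate 2 (-3.65, adjusted p = 0.093). After heat neither gene was called between the lines. DREB1C was at 19.9 and 20.3 CPM in cr12 and 11.5 and 13.3 CPM in cr2 (0.69, adjusted p = 0.38), and DLT was at 12.2 and 7.31 CPM in cr12 and 9.25 and 11.4 CPM in cr2 (-0.08, adjusted p = 0.98).

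ABA8ox1, an enzyme that inactivates abscisic acid, stood at 17.6 and 11.6 CPM in cr12 and at 34.5 and 43.9 CPM in cr2 (-1.43 ± 0.36, adjusted p = 0.049). The abscisic acid regulator bZIP23 was the other call of that list of 16, at 29.5 and 33.8 CPM in cr12 and at 21.7 and 16.9 CPM in cr2 (0.71 ± 0.15, adjusted p = 0.029). In WT ABA8ox1 stood at 34.9, 24.6 and 17.6 CPM and bZIP23 at 25.1, 27.5 and 28.6 CPM. JAZ11, a repressor of jasmonate responses, stood at 8.62 and 8.19 CPM in cr12, at 2.93 and 1.46 CPM in cr2, and at 2.78 to 3.73 CPM in WT (1.93 ± 0.46, adjusted p = 0.041). It is a gene in which cr12 is the line that stands above WT, by 1.36 (adjusted p = 0.12). It was the only call of 13 JAZ genes, a list the study may have picked from these very samples, so that its count is not independent evidence. JAZ13 had the largest difference of that list, in the other direction (-2.14 ± 0.77, adjusted p = 0.14). ELF3-2, a part of the evening complex of the clock, stood at 16.8 and 12.7 CPM in cr12 and at 21.1 and 24.3 CPM in cr2 (-0.62 ± 0.14, adjusted p = 0.033), and was the only call of 13 clock genes. In WT ELF3-2 stood at 20.2, 22.6 and 21.5 CPM, which overlaps cr2 and lies above cr12. GI, the clock gene with the largest difference, gave 0.69 ± 0.19 (adjusted p = 0.067). Without cr2_control replicate 2 ABA8ox1 stood at -1.28 (adjusted p = 0.29), bZIP23 at 0.51 (0.33), JAZ11 at 1.48 (0.35) and ELF3-2 at -0.55 (0.26), none of them called.

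Of the chaperones and heat shock factors 2 genes were called between the untreated lines, both higher in cr12. The small heat shock protein gene LOC_Os02g03570 stood at 8.61 and 12.1 CPM in cr12 and at 5.2 and 4.76 CPM in cr2 (1.05 ± 0.24, adjusted p = 0.036), the only call of 19. WT stood at 8.22, 9.16 and 8.91 CPM for this gene. The HSP70 gene LOC_Os05g38530 stood at 27.7 and 46.8 CPM in cr12, at 18.7 and 10.6 CPM in cr2, and at 39, 37.2 and 42.1 CPM in WT (1.34 ± 0.28, adjusted p = 0.025), the only call of 19 larger chaperones. Both stood at 0.95 without cr2_control replicate 2, and neither was called (adjusted p = 0.27 and 0.24). Over all 28823 tested genes, 6109 had an unadjusted p under 0.05. The 25 heat shock factors had 6 such genes, a like share, with 0 calls by edgeR, 0 by voom and 2 by DESeq2. Their median was 0.28. HSFB4c had the largest difference of that list, at 0.131 and 0 CPM in cr12 and 0.722 and 0.14 CPM in cr2 (-2.71 ± 1.21, adjusted p = 0.23). After heat 6 of the 25 were higher in cr12, among them HSFA4d (1.52, adjusted p = 0.0067) and HSFB2a (1.1, adjusted p = 0.014), and the median was 0.49. Of all tested genes 2.18% were called higher in cr12 after heat.

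Markers of other cell types were low and gave no call between the lines with edgeR. Marker genes of dividing cells summed to 53.9 and 51.1 CPM in cr12 and to 52.9 and 51.6 CPM in cr2, both above WT at 34.4 to 40.2 CPM. These 14 genes had 0 calls between the lines by edgeR, 0 by voom and 2 by DESeq2. An unadjusted p under 0.05 was found in 3 of them, a share like that over all tested genes (6109 of 28823). CYCB2;2, a mitotic cyclin, had the largest difference, at 0.413 and 0.63 CPM in cr12 and at 3.44 and 3.68 CPM in cr2 (-2.77 ± 0.74, adjusted p = 0.06). Over all 28823 tested genes, 8362 lay higher in cr12 without overlap and 6893 higher in cr2. Of the 14 markers 4 and 4 did so, shares like those over all genes. Those higher in cr2 were the cyclins CYCB1;1, CYCB2;1 and CYCB2;2 and the kinase gene CDKB2;1. Those higher in cr12 were MCM2, MCM6, PCNA and RNRL1. This split was seen in the values and was not tested. The mitotic cyclin CYCB1;1 stood at 1.56 and 1.75 CPM in cr12 and at 4.49 and 5.54 CPM in cr2. CDKB2;1 stood at 1.09 and 1.73 CPM in cr12 and at 3.63 and 4.17 CPM in cr2. Against WT CYCB1;1 (adjusted p = 0.037) and CYCB2;2 (0.023) were called higher in cr2. Shoot meristem markers summed to 27.2 and 26.9 CPM in cr12, to 28.6 and 29 CPM in cr2, and to 27.9 to 30.8 CPM in WT. Nearly all of that was FON1, a receptor kinase, at 27 and 26.5 CPM in cr12 and at 28 and 28.9 CPM in cr2, while the meristem homeobox gene OSH1 was at 0 in 6 of the 7 untreated libraries and at 0.086 CPM in cr2_control replicate 2. Root markers summed to 11.2 and 8.28 CPM in cr12, to 8.24 and 7.42 CPM in cr2, and to 4.95 to 6.4 CPM in WT. Most of these sums was Lsi1, a silicon channel, at 9.76 and 7.63 CPM in cr12 and at 7.91 and 7.26 CPM in cr2, and the root markers RCc3 and Lsi2 were at 0 in all 7 untreated libraries. Of the root list 5 of 6 genes were tested, and its part in the differences between the lines was not tested. Neither list had a call by edgeR, DESeq2 or voom, or an unadjusted p under 0.05. The leaf marker RCA stood at 15000 CPM or more in each of the 7 untreated libraries.

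A small set of loci was on in one line and off in the other. With on taken as at least 1 CPM in both libraries of a line and off as at most 0.2 CPM in both libraries of the other, limits chosen after the values were seen, 45 loci qualified (0.156% of tested genes). Of these 25 were on in cr12 and 20 on in cr2. WT was off for 14 of the 25 and for 14 of the 20, and on for 1 of each. Thus for 28 of the 45 the line in which the locus was on is the one that departs from WT. The loci occurred on all 12 chromosomes, but not evenly by line. On chromosome 7 all 5 loci on in cr12 had IDs from LOC_Os07g05840 to LOC_Os07g06834. Chromosomes 4 and 11 held 4 and 5 loci on in cr2 and 0 on in cr12. Whether the loci cluster was not tested. Among the 45, 3 pairs were neighbours in ID order, each pair with a single pattern.

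The unlisted loci named here, 2 in each direction, had the largest fitted log2 differences among called loci with a mean of at least 5 CPM in the higher line, and belong to this set. Counts of 0 drive that rank, so others of the 45 may differ by as large a fold. The files do not pair them with names. LOC_Os03g18779 stood at 37.7 and 41.2 CPM in cr12 and had no count in any untreated cr2 or WT library, so it was at least 633-fold higher in cr12 than in cr2 (adjusted p = 0.00095). That bound is set by 12 counts, or 3 fragments, over the group without counts. After heat it stood at 38.1 and 41.5 CPM in cr12 and again had no count in cr2. LOC_Os07g05850 stood at 40.5 and 43.7 CPM in cr12, had no count in cr2, and was at 0.062, 0.303 and 0.745 CPM in WT, at least 675-fold higher in cr12 than in cr2 (adjusted p = 0.0051). LOC_Os04g24770 had the reverse pattern, with 11.3 and 9.26 CPM in cr2 and no count in cr12 or WT, at least 172-fold higher in cr2 than in cr12 (adjusted p = 0.0023). LOC_Os12g31860 stood at 2.53 and 46.6 CPM in cr2, at 0.121 and 0.187 CPM in cr12, and at 0.077 to 0.857 CPM in WT (log2 difference -7.3 ± 1.47, adjusted p = 0.024). The replicates of cr2 differed more than 10-fold there, and the other 3 loci had replicates within a narrow range.

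After heat 20 of the 45 loci had the same pattern in the heat-treated libraries, 1 had the opposite pattern, and 34 kept the order of the lines without overlap. The same rule applied to the heat-treated libraries gave 38 loci (0.132% of tested genes).

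**Figure D4:**
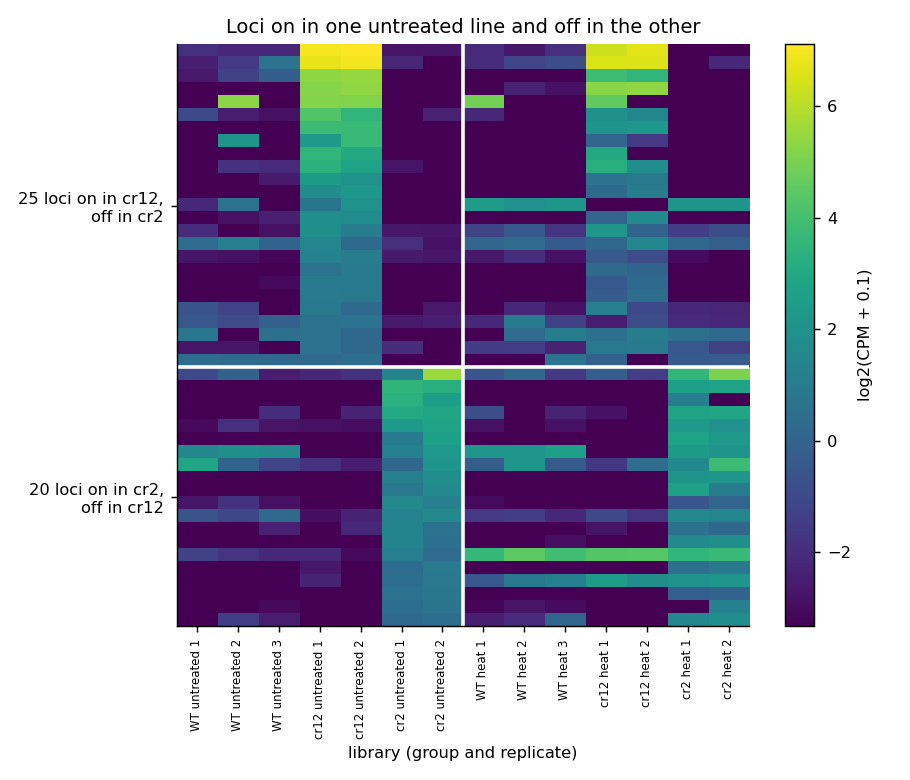
Levels of the 45 loci that were on in one untreated line and off in the other, as log2(CPM + 0.1) by color, with loci in rows and the 14 libraries in columns (untreated left of the white line, heat-treated right of it). The upper block holds 25 loci on in cr12 and the lower block 20 loci on in cr2; after heat 20 of the 45 keep their pattern and 34 keep the order of the lines without overlap, and untreated WT is off for 28.

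The heat-treated libraries of the lines share no library with the untreated ones and so repeat the comparison in other libraries. Both comparisons came from the same fit, in which each gene's spread is borrowed from all groups. Calls shared by both treatments are therefore not fully independent. In the heat-treated libraries 1620 genes (5.62%) differed between the lines, 627 higher in cr12 (2.18%) and 993 higher in cr2 (3.45%). A fit of the heat-treated libraries alone gave 776 genes. In both treatments 396 genes were called, 391 in the same direction and 5 in opposite directions. The 391 genes are 35.7% of the calls without heat and 24.1% of those after heat, and 129 of them were higher in cr12 and 262 in cr2. Of the 1094 untreated calls 947 (86.6%) had the same sign after heat, and for 768 the heat-treated libraries of the lines did not overlap in the same order (70.2%). Over all tested genes 60.7% had the same sign in both treatments, and 33.2% had heat-treated line libraries that did not overlap in the order of the untreated difference. Among the 23 listed genes the 5 called in both treatments were MADS14, MADS18, CPS2, CHLI and CHLD.

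Of the 64 genes called without cr2_control replicate 2, 61 were also called with all libraries, and 47 (73.4%) were called after heat in the same direction. These 47, called with all libraries, without cr2_control replicate 2 and after heat, comprise 15 genes higher in cr12 and 32 higher in cr2. The number after heat also rested on single libraries. The count of 1620 was 87 without cr12_heat replicate 2, 334 without cr2_heat replicate 2, 669 without cr2_heat replicate 1 and 1236 without cr12_heat replicate 1.

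**Figure D5:**
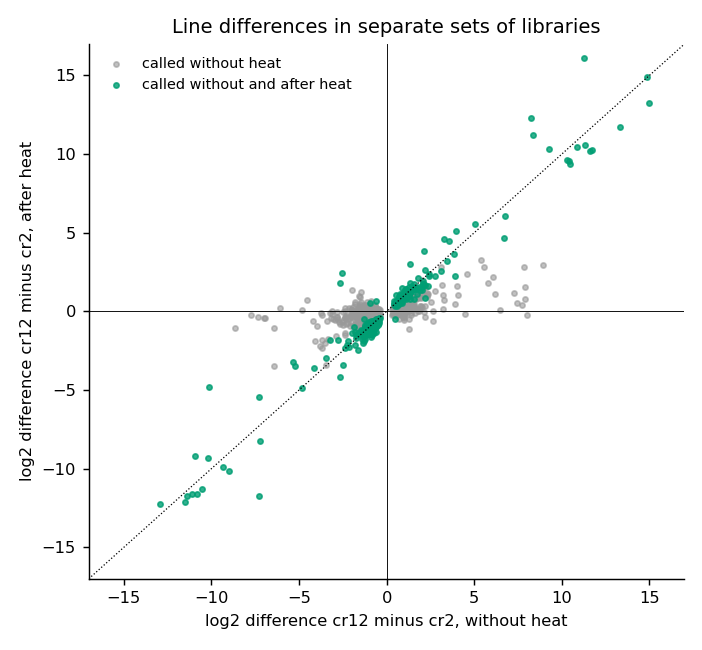
Log2 difference of cr12 minus cr2 for the 1094 genes called without heat, in untreated libraries (x axis) and in heat-treated libraries (y axis), with equal differences on the dotted line. Green points are the 396 genes called in both treatments, of which 391 lie in the same direction; fitted values beyond about 8 belong to genes with no or almost no count in one line and are not fold estimates.

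A test of whether the difference between the lines changed with heat called 1 gene with edgeR (0.00347% of those tested; 3304 had an unadjusted p under 0.05), 551 with DESeq2 and 2 with voom. The gene is LOC_Os07g48280, named after its values were seen. Without heat it stood at 32.5 and 34.4 CPM in cr2, at 17.2 and 16.9 CPM in cr12, and at 17, 17.7 and 16.2 CPM in WT, so the cr2 libraries were the high ones. After heat it stood at 21.9 and 22.4 CPM in cr2, at 29.2 and 34.4 CPM in cr12, and at 23.8, 26.2 and 24.7 CPM in WT, so the cr12 libraries were the high ones. The log2 difference was -0.97 (adjusted p = 0.0023) without heat and 0.52 (adjusted p = 0.015) after it, a change of 1.49 (adjusted p = 0.011).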

How the data were processed

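Estimated counts per gene for 55986 loci with MSU IDs were deposited as one table. The submitters' processing notes name HISAT2 2.1.0, StringTie 1.3.3b, DESeq2 and fastp 0.20.1, with no roles. The sources used here give no genome build. The deposited estimated counts are whole numbers, so rounding altered nothing. StringTie derives counts from coverage: the value 4 occurs 9196 times, 3 occurs 3918 times and 5 occurs 5346 times, so 1 fragment was taken as 4 counts. Depth, and the floor of 3 fragments, cover counting error only.

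Genes were tested with the quasi-likelihood F test of edgeR 4.0.16 (R 4.3.3, TMM, filterByExpr, Benjamini-Hochberg over 28823 genes), in 1 fit of 6 group means to 14 libraries, so that groups of 2 borrow their spread from all groups. Adjusted p-values are from edgeR unless another tool is named. Log2 differences are cr12 minus cr2 with an approximate SE, the absolute log2 difference divided by the square root of F. Alternatives used limma 3.58.1 and DESeq2 1.42.0. The edgeR fit was also run on simulated data with 200 genes changed by a known fold. No simulated library was made to stand apart, so that run cannot show how cr2_control replicate 2 affects the calls.

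Members and lists were chosen with earlier results of these data known. List IDs were written from memory, because the files do not pair IDs with names. Symbols other than family names were given to 344 listed loci. Of these, 222 were found in a RefSeq name table (ASM3414082v1) on the chromosome that the ID gives, 5 on another, 8 matched several entries and 109 were not found, and 2471 of 2471 comparable pairs on 1 chromosome stand in ID order. Overlapping loci and near-identical copies may share reads. One listed gene is not reported here and was left out of all list counts. The text names HSFA2d, each listed gene called, the tested member with the largest difference of the lists described, 4 unlisted loci, and listed genes known to differ between replicates.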

Additional observations from a re-analysis of the deposited data

Results flagged for a closer look

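The difference between the lines changed with heat in LOC_Os07g48280, by 1.49 on the log2 scale in a direct test of the change (edgeR, adjusted p = 0.011). Over 22 alternatives its adjusted p ran from 4.4e-17 to 0.11. Without heat both cr2 libraries (32.5 and 34.4 CPM) lay above both cr12 libraries (17.2 and 16.9 CPM), and after heat both cr12 libraries (29.2 and 34.4 CPM) lay above both cr2 libraries (21.9 and 22.4 CPM).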

How the results depend on the processing

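The balance of genes departing from WT in cr12 only (135) and in cr2 only (392) turned without cr2_control replicate 2, but not without cr2_control replicate 1. Each of these fits leaves a single library in cr2. No paired analysis was possible because the labels give no replicate numbers. Limits are the 2 libraries per line, the spread borrowed from other groups, and cr2_control replicate 2, and depth limits genes near the floor. With DESeq2 the calls were 3153 between the untreated lines, 1723 for cr12 and 3155 for cr2 against WT, 2912 between the heated lines and 551 for the change with heat. With voom cr12 differed from WT in 695 genes and the change with heat was called in 2, and with library quality weights, an alternative chosen after seeing the data, cr12 differed from WT in 1075. In untreated libraries alone cr12 differed from WT in 270 genes, the 4 line libraries alone gave 22 genes between the lines, and heat-treated libraries alone gave 776. The change with heat was called in 22 genes without a filter, in 3 at a mean of at least 1 CPM and in 3 with counts divided by 4. With an unadjusted p under 0.05 against WT, 312 genes departed in cr12 only. On at 2 CPM, the locus count was 22. Leaving out each library in turn gave 64 to 1746 genes between the untreated lines, 128 to 230 for cr12 and 280 to 1441 for cr2 against WT, 87 to 1236 between the heated lines, 2 to 17 for the change with heat, 35 to 182 departing in cr12 only and 21 to 715 in cr2 only, and 58 to 90 loci on in one line. Without WT_control replicate 1, 2 or 3, cr12 differed from WT in 154, 230 and 192 genes and cr2 in 889, 924 and 945. Of the 23 listed calls DESeq2 kept 23, voom 19, RLE scaling 22 and untreated libraries alone 11.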

Other observations

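The called genes were spread over the genome, from 2.81% of the tested genes on chromosome 9 to 4.59% on chromosome 3. Among tested loci in ID order, 56 runs of neighbouring called loci held 121 genes: 49 pairs, 5 runs of 3 and 2 runs of 4. All loci of a run moved in the same direction in 34 of the 49 pairs, in 5 of the 5 runs of 3 and in 1 of the 2 runs of 4, the one that starts with MADS18. Reads that extend from one locus into its neighbour were not tested.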
